A study of Mus musculus with 9 samples.

Results

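Aminoacyl-tRNA synthetases are the enzymes that join each amino acid to its transfer RNA (tRNA). 35 of their genes, 19 for cytosolic and 16 for mitochondrial enzymes, were examined among the 57180 genes of the deposited table. They were taken by gene name from a list drawn up with earlier results of these data known, and the rule itself uses no measured value. In the table, 14 cytosolic symbols stood in their older form, without the final 1. All 35 exceeded the mean of 10 normalized counts over the 9 libraries that a gene needed to be tested.

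RNA-seq was run on whole hippocampus of 11-day-old C57BL6 mice. 4 animals, labelled Slc38a3 cKO, had Slc38a3 deleted selectively in endothelium, and 5 animals were wild type (WT). Of the cKO animals 3 were male and 1 was female, of the WT animals 1 was male and 4 were female, and sex was therefore a term in the main model. Neither the promoter that drove the deletion nor the litters are named in the sources at hand. Values are normalized counts, that is read counts per gene divided by a size factor per library.

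A synthetase activates its amino acid with ATP and loads it on the matching tRNA, which carries it to the ribosome. Cytosolic enzymes serve translation in the cytosol, and mitochondrial enzymes, also encoded in the nucleus and imported, serve translation of the few proteins encoded by mitochondrial DNA. When an amino acid is scarce, uncharged tRNA activates the kinase GCN2 (Eif2ak4), translation of the transcription factor ATF4 rises, and many cytosolic synthetase genes are among its targets. SNAT3, the product of Slc38a3, carries glutamine, histidine and asparagine.

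Promoters are shown first, to lay out where the ATF4 motif stands in these genes. The motif searched was TGATGNAA on both strands, the core of the composite site bound by ATF4 with a C/EBP protein, where N is any base. A match on the opposite strand reads TTNCATCA. Of the 35 genes, 26 had a promoter in RefSeq's table (build GRCm38.p6, 250 bases before to 50 after the start site). The motif was found in 5 of 12 cytosolic promoters and in 0 of 14 mitochondrial ones, against 3.97% of all 32851 windows in that table. A match is a run of letters and no evidence of binding, and the 26 windows are few. The 5 windows with a match and those of Sars1 and Fars2, whose transcripts are described below and whose windows hold no match, read 5′ to 3′ as follows, with the motif in capitals.
Aars1 promoter, chr8:111033592-111033891, plus strand: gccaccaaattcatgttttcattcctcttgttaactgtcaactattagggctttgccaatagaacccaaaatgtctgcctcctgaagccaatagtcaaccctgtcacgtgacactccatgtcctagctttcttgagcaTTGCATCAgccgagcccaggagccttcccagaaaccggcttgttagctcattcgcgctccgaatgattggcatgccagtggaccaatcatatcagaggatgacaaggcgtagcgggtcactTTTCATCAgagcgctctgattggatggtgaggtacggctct
Gars1 promoter, chr6:55037751-55038050, plus strand: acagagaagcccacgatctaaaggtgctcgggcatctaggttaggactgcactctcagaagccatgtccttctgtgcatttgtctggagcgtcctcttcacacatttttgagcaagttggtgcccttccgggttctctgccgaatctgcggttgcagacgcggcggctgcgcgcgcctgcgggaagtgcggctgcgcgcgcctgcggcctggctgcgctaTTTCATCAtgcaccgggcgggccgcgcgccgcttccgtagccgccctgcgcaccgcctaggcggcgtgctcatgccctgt
Iars1 promoter, chr13:49681880-49682179, plus strand: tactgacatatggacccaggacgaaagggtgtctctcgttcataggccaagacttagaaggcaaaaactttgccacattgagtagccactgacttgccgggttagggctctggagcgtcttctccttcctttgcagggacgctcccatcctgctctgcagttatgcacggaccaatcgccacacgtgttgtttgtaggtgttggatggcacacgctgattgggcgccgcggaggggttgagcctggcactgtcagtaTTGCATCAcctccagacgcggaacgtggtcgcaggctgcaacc
Tars1 promoter, chr15:11399609-11399908, minus strand: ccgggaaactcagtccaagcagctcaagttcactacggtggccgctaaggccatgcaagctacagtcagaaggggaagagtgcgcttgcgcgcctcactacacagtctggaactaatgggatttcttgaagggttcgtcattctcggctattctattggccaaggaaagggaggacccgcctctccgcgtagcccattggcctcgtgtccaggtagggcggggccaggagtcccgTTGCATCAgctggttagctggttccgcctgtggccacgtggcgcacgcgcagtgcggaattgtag
Yars1 promoter, chr4:129189653-129189952, plus strand: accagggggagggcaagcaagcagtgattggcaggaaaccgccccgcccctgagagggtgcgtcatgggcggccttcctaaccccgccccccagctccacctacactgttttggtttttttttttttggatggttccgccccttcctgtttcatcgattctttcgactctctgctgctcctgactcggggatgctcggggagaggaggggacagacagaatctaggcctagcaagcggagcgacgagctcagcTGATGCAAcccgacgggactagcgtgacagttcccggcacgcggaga
Sars1 promoter, chr3:108445210-108445509, minus strand: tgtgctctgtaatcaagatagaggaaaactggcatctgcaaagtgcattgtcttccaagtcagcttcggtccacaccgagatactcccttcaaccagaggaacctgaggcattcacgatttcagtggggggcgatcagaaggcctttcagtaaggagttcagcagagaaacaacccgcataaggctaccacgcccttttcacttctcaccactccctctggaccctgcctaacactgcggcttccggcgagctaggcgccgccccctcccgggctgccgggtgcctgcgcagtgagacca
Fars2 promoter, chr13:36117393-36117692, plus strand: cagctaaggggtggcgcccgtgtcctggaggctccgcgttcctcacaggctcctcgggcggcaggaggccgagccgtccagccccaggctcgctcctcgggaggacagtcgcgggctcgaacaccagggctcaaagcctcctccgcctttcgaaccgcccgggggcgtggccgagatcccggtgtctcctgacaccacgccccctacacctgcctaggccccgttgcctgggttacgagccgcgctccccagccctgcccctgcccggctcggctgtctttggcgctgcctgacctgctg

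Aars1 held the motif 2 times, at bases 139 and 260 of its window, and the others once, at base 221 in Gars1, 258 in Iars1, 236 in Tars1 and 254 in Yars1, counted from 1 at the 5′ end. A second motif, GCGC and TGCGC with any 1 base between them, the core of the site bound by NRF1, a regulator of nuclear genes for mitochondrial proteins, was in 3 of 12 cytosolic windows (Farsb, Kars1 and Tars1) and in 2 of 14 mitochondrial ones (Iars2 and Mars2), against 4.60% of all windows. No match of one motif overlapped a match of the other.

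The label was checked on Slc38a3 itself, which held 379.8, 405, 308 and 310.2 normalized counts in cKO, against 3392, 2033, 3514, 3363 and 1804 in WT. The groups did not overlap (exact permutation test over 126 splits, two-sided p = 0.00794, which is the lowest value that 4 against 5 animals can give). WT replicates 2 and 5 stood below the other WT libraries, and without them the median log2 fold change was 0.050 for the cytosolic and -0.0064 for the mitochondrial genes, against 0.047 and -0.018 with them. The depth was 32096409 to 34034530 recovered reads in cKO and 30803135 to 33134405 in WT. All 8 markers of hippocampal neurons were detected, with a lowest mean of 1409 normalized counts. Choroid plexus markers, from tissue beside the hippocampus, summed to 564 to 32921 in cKO and 583 to 43558 in WT, so libraries of both groups differed widely in them. Meningeal fibroblast markers summed to 7632 to 9238 in cKO and 5410.0 to 9131 in WT. The summed markers did not overlap for endothelial cells, at 6446 to 7245 in cKO and 7266 to 8155 in WT, nor for microglia, at 7923 to 8905 in cKO and 9086 to 9766 in WT. Of these 13 markers 1 passed, the VEGF receptor gene Flt1, which fell. The ranges of the summed markers overlapped for hippocampal neurons, astrocytes, oligodendrocytes and blood cells, where 3 astrocyte markers passed (Gfap and S100b rose, Aqp4 fell). For hippocampal neurons the overlap was narrow, at 45689 to 50809 in cKO and 50588 to 54370 in WT. Of the 8 neuron markers 2 had a log2 fold change above 0, and the median was -0.046. Above 0 were also 0 of 6 microglia markers (median -0.12), 0 of 5 blood cell (-0.19) and 2 of 7 endothelial markers (-0.082). On the other side were 6 of 6 oligodendrocyte markers (0.23), 6 of 6 choroid plexus (0.54), 7 of 8 meningeal fibroblast (0.39) and 4 of 7 astrocyte markers (0.10). In RNA of whole tissue, fewer cells of a type and less RNA per cell cannot be told apart, and the part of these cells in the synthetase values was not tested.

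Levels were compared per kilobase of exon, with exon lengths from GENCODE M21. The length of a gene was the union of all its annotated exons, whether or not they are used in hippocampus. Ranks and ratios per kb therefore depend on the annotation as well as on the counts. By mean normalized counts in WT, Nars1 (6574) and Aars1 (6042) stood above Gars1 (5308), whose exon length is 3119 bases, against 4355 for Nars1 and 9282 for Aars1. In all 17 pairs of chains of the same amino acid the cytosolic gene stood above the mitochondrial one, in WT by a median of 4.24-fold (range 1.90 to 21.2). The median level was 556 normalized counts per kb in cKO and 521 in WT for the cytosolic genes, and 116 in cKO and 121 in WT for the mitochondrial genes. Gars1, for glycine, led the cytosolic genes at 1747 ± 41.5 in cKO and 1702 ± 51.9 in WT (mean per kb ± SD, n = 4 and n = 5). In single libraries it held 5429, 5636, 5339.7 and 5394 normalized counts in cKO, against 5512, 5431, 5259, 5227 and 5109.9 in WT, with overlapping groups. Nars1, for asparagine, followed at 1608 ± 71.6 in cKO and 1509.6 ± 30.8 in WT. In WT the spreads of these genes did not meet. The lowest were Tars1, for threonine, at 266 ± 9.28 in cKO and 257 ± 7.87 in WT per kb, and Cars1, for cysteine, at 239.8 ± 17.8 in cKO and 209.8 ± 5.44 in WT. Gars1 and Kars1 each encode both the cytosolic and the mitochondrial form of their enzyme, and their transcripts cannot be split here. Among mitochondrial genes Rars2, for arginine, was at 225 ± 13.8 in cKO and 236 ± 14.5 in WT, in the same unit, and Iars2, for isoleucine, at 225 ± 5.90 in cKO and 217 ± 6.50 in WT, and these neighbours differed by less than their added SDs. Rars2 held 571, 661, 639 and 623 normalized counts in cKO, against 655, 608, 717, 649.6 and 637 in WT, and the groups overlapped (log2 fold change -0.039 ± 0.0737). At the other end, Wars2, for tryptophan, was at 57.9 ± 1.21 in cKO and 62.4 ± 3.70 in WT per kb and Ears2, for glutamate, at 46.4 ± 5.40 in cKO and 50.7 ± 3.95 in WT. The widest ratio within an amino acid was that of asparagine, where Nars1 exceeded Nars2 23.6-fold in cKO and 21.2-fold in WT, and the narrowest that of threonine, 1.90-fold in cKO and 1.90-fold in WT.

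**Figure D1:**
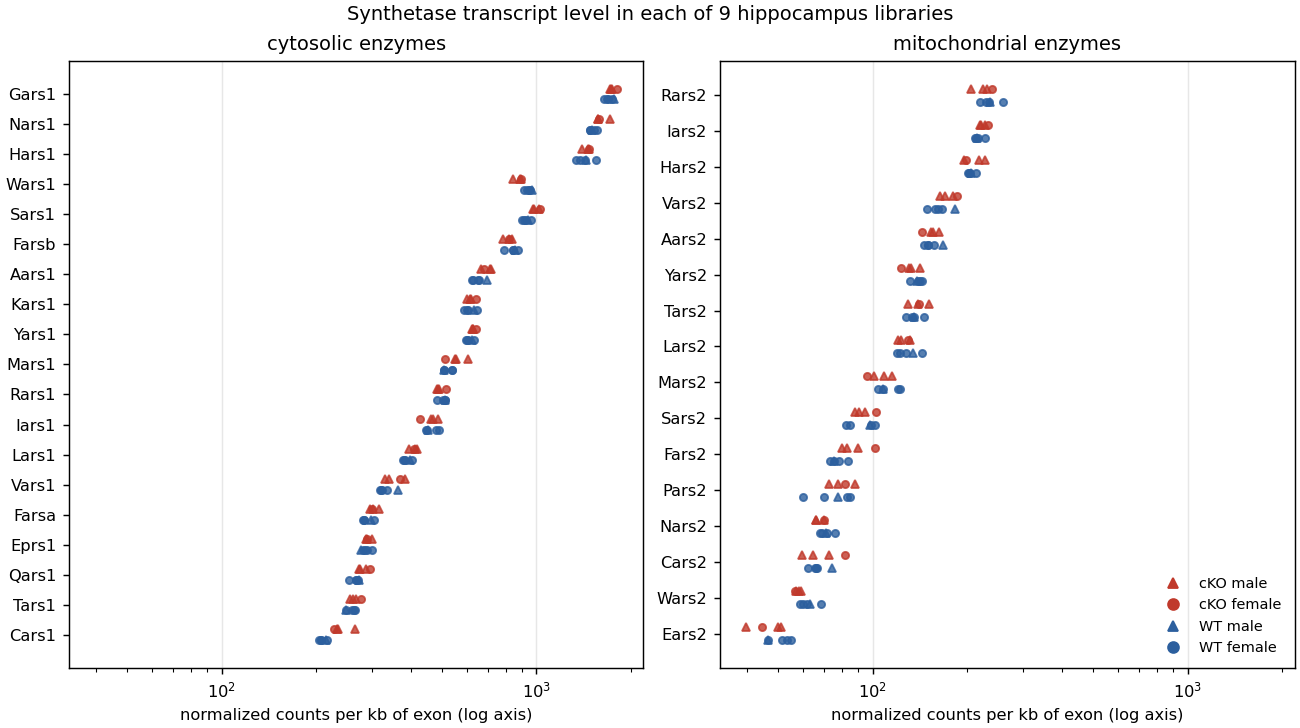
Level of each synthetase gene in normalized counts per kb of exon (log axis), with 1 point per library, red for cKO above blue for WT, triangles for males and circles for females. The cytosolic genes reach from Cars1 to Gars1, and 13 of the 16 mitochondrial genes lie wholly below Cars1.

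The comparison of cKO with WT asked whether synthetase transcripts differ in a hippocampus whose endothelium lacks SNAT3. None of the 35 genes passed (limma-trend, Benjamini-Hochberg adjusted p under 0.05 over 17036 genes), where 0.346% of all genes tested did, 0.123% higher and 0.223% lower in cKO. With edgeR and with DESeq2 on the recovered reads 0 passed as well. At an unadjusted p under 0.05 there were 4 of 35, or 11.4%, where all genes tested gave 11.3%. 3 of the 4 were higher in cKO, where all genes gave 4.94%, and 1 was lower, where all genes gave 6.4%, so the total was near the background. The cytosolic genes had log2 fold changes of -0.11 to 0.15 (cKO over WT), with 15 of 19 above 0 and a median of 0.047. The mitochondrial genes ran from -0.13 to 0.28, with 8 of 16 above 0 and a median of -0.018. Over all genes tested 48.8% were above 0 and the median was -0.0034. No 95% interval of a cytosolic gene reached beyond -0.20 or 0.27, which is 0.873- to 1.21-fold. For the mitochondrial genes the outer bounds were -0.35 and 0.46, or 0.785- to 1.37-fold. The intervals are per gene and not adjusted for the number of genes.

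**Figure D2:**
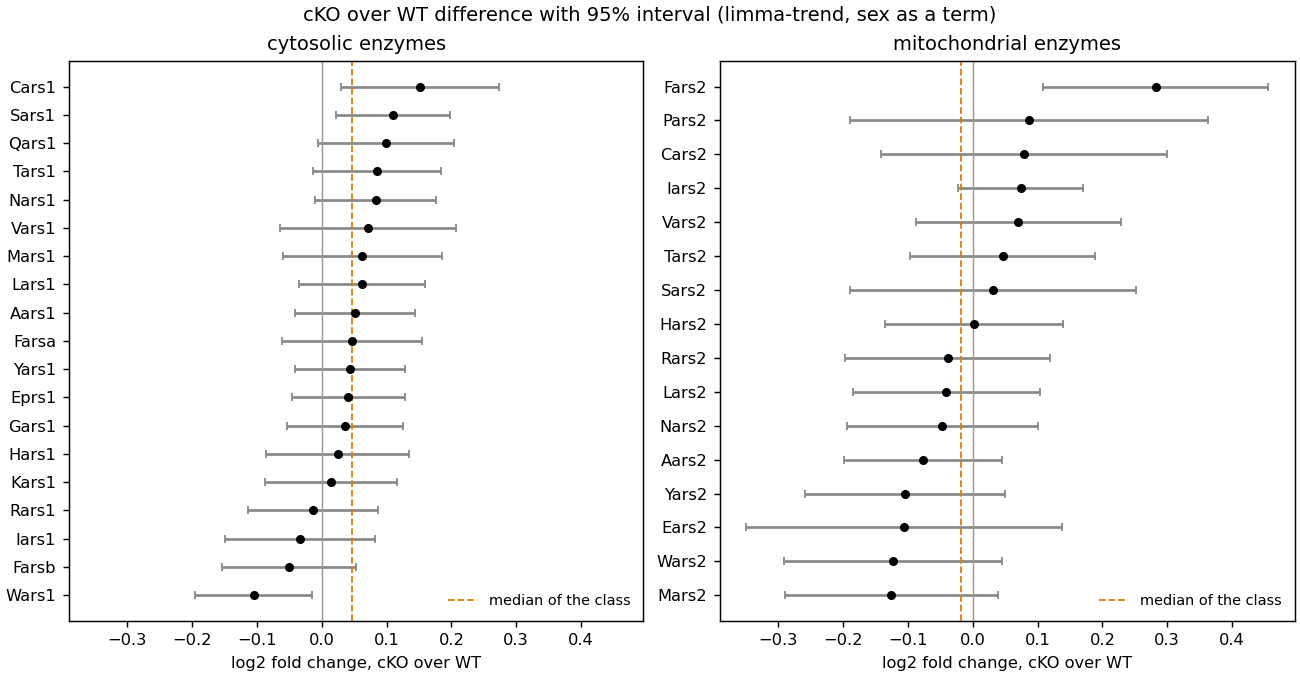
Log2 fold change of each gene, cKO over WT, as a point with its 95% interval, sorted within each class, with the class median dashed. The intervals of 3 cytosolic genes (Cars1, Sars1, Wars1) and 1 mitochondrial gene (Fars2) leave out 0 before adjustment, and no gene passed after it.

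Libraries of cKO and WT did not overlap for 4 of the 35 genes, 3 higher and 1 lower in cKO, all 4 cytosolic. Over all genes tested 6.29% did not overlap, 2.58% higher and 3.72% lower in cKO, against 11.4% of the synthetases. Sars1 (ENSMUSG00000068739, chromosome 3, 108332180 to 108352525 in GRCm39) encodes the enzyme for serine. It held 5067, 5258, 5233 and 4997 normalized counts in cKO, against 4842, 4958, 4754, 4705 and 4619.6 in WT. The lowest cKO library lay just above the highest WT library, and the log2 fold change was 0.11 ± 0.0410 (SE, adjusted p = 0.326), or 7.96% more. Cars1 (ENSMUSG00000010755, chromosome 7, 143110966 to 143153827 in GRCm39), for cysteine, held 1752, 1498, 1527 and 1537 normalized counts in cKO, against 1416, 1422, 1360.4, 1341 and 1366 in WT. Replicate 1 stood apart from the other cKO libraries, which were themselves above every WT library (log2 fold change 0.15 ± 0.0569, adjusted p = 0.330). With the meningeal markers as a term, entered as a mean log2 value, it was 0.10, and without that term 0.15. Nars1 (ENSMUSG00000024587, chromosome 18, 64632717 to 64649723 in GRCm39), for asparagine, held 6836, 6875, 7471 and 6833 normalized counts in cKO, against 6548, 6774, 6456, 6636 and 6458 in WT. Replicate 3 was the high cKO library, and the other 3 lay close to the top of WT (log2 fold change 0.083 ± 0.0434, adjusted p = 0.487). Wars1 (ENSMUSG00000021266, chromosome 12, 108825955 to 108860100 in GRCm39), for tryptophan, was lower in every cKO library than in any WT library, with 3069.6, 3079, 3063 and 2903 normalized counts in cKO, against 3334, 3265, 3277, 3207 and 3144 in WT. The log2 fold change was -0.11 ± 0.0420 (adjusted p = 0.368). Without WT replicate 1, the only WT male, it was -0.066, and the genotype contrast then rests on females alone. Its mitochondrial partner Wars2 had -0.12 ± 0.0780 (adjusted p = 0.579).

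**Figure D3:**
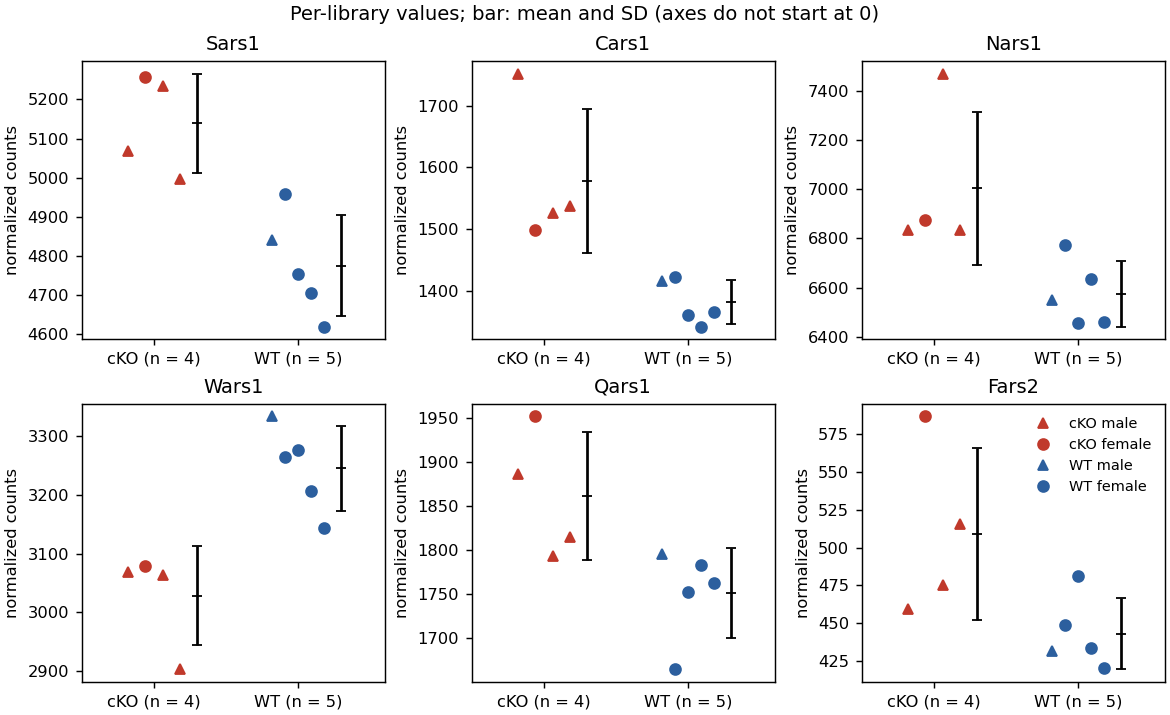
Normalized counts of 6 synthetase genes in each library, cKO left and WT right, triangles for males and circles for females, with mean and SD beside them. In Sars1, Cars1 and Nars1 the 4 cKO libraries lie above the 5 WT libraries and in Wars1 below them, while in Qars1 and Fars2 the groups meet.

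7 of the cytosolic genes encode enzymes of the multisynthetase complex, an assembly of synthetases held by scaffold proteins. Of these 0 passed, 5 had a fold change above 0, and the median was 0.041 on the log2 scale. Qars1 (ENSMUSG00000032604, chromosome 9, 108384904 to 108393140 in GRCm39), for glutamine, the main cargo of SNAT3, held 1886, 1952, 1793 and 1815 normalized counts in cKO, against 1795, 1665, 1753, 1783 and 1762 in WT. The lowest cKO library lay just under the highest WT library, so the groups touched (log2 fold change 0.10 ± 0.0489, adjusted p = 0.462). In females only the value was 0.17 and in males only 0.029, each set by 1 library on one side. Lars1, for leucine, held 2248, 2191, 2106 and 2212 normalized counts in cKO, against 2125, 2163, 2054, 2042 and 2024 in WT. Its groups overlapped (log2 fold change 0.062 ± 0.0453, adjusted p = 0.630). Mars1, for methionine, had normalized counts of 1755 to 2080.2 in cKO and 1742 to 1847 in WT, with a log2 fold change of 0.063 ± 0.0570. Its gene overlaps that of Ddit3 by 69 bases, and Ddit3, a stress transcription factor, was at 222 ± 26.3 in cKO, against 203 ± 30.9 in WT (adjusted p = 0.959). Eprs1, a single protein that charges both glutamate and proline tRNA, was at 5288 ± 101 in the 4 cKO libraries and 5189 ± 161 in the 5 WT libraries (SD), a difference within the spread. Iars1 for isoleucine (log2 fold change -0.033), Kars1 for lysine (0.015) and Rars1 for arginine (-0.013) lay near 0, each with overlapping groups. Among the scaffold genes, Aimp1 was at 992 ± 90.0 in cKO and 953 ± 42.8 in WT, and 0 of the 3 scaffold genes (Aimp1, Aimp2 and Eef1e1) passed, with a median log2 fold change of -0.048.

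The other cytosolic enzymes act outside that complex. Tars1, for threonine, held 1578, 1639, 1511 and 1544 normalized counts in cKO, against 1471, 1561, 1467, 1559 and 1533 in WT. The groups overlapped in the middle of their ranges (log2 fold change 0.085 ± 0.0460, adjusted p = 0.505). Aars1, for alanine, held 6617, 6339, 6666 and 6187 normalized counts in cKO, against 6457, 6099.7, 6036, 5799.5 and 5819 in WT. The WT male, replicate 1, stood above 2 of the cKO libraries, and the 4 WT females stood below all of cKO (log2 fold change 0.052 ± 0.0430, adjusted p = 0.682). The value was 0.0065 without cKO replicate 2, the only cKO female, and 0.094 without WT replicate 1, the only WT male. With sex as a term, the former fit compares males alone and the latter females alone, so neither shows the influence of 1 library by itself. Vars1, for valine, which binds elongation factor 1, had 1857 to 2146 in cKO and 1783 to 2033 in WT, Yars1, for tyrosine, 3712 to 3821 in cKO and 3557 to 3753 in WT, Gars1 5339.7 to 5636 in cKO and 5109.9 to 5512 in WT, and Hars1, for histidine, 3414 to 3602 in cKO and 3278 to 3779 in WT, all in normalized counts, with log2 fold changes of 0.071, 0.044, 0.036 and 0.025 in that order. The phenylalanine enzyme is built of the chains Farsa and Farsb, whose log2 fold changes were 0.047 and -0.051, with overlapping groups in both. Synthetases fall into class I and class II by the fold of their catalytic domain, Eprs1 having one of each. In class I 9 of 18 genes were above 0 (median 0.015), and in class II 13 of 16 (median 0.041), with 0 passing in both. The genes of the enzymes for the amino acids that SNAT3 carries, Qars1, Hars1 and Nars1, a grouping made after their values were seen, had log2 fold changes of 0.10, 0.025 and 0.083, and 0 of 3 passed.

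13 of the 19 cytosolic genes are usually listed as ATF4 targets: Aars1, Cars1, Eprs1, Gars1, Iars1, Lars1, Mars1, Nars1, Sars1, Tars1, Vars1, Wars1 and Yars1. Their median log2 fold change was 0.062, with 11 of 13 above 0, and that of the other 6 was 0.020, with 4 of 6 above 0. The difference between these lists was not tested. Per library, the median deviation of these 13 genes from their own means, on the log2 scale, was 0.036, 0.033, 0.0059 and 0.016 in cKO, against -0.027, -0.028, -0.043, -0.039 and -0.071 in WT, and the groups did not overlap. These medians carry no sex term, and how often the median of 13 genes separates the groups was not examined. Sars1, Cars1, Nars1 and Wars1, whose own libraries did not overlap, are all among the 13. They make up 30.8% of the list, where 6.29% of all genes tested did not overlap. Genes with TGATGNAA in the printed promoters (Aars1, Gars1, Iars1, Tars1 and Yars1) had a median of 0.044 (range -0.033 to 0.085), and the 7 cytosolic genes whose window holds no match had 0.047 (range -0.051 to 0.11). These ranges overlapped. Of 22 other genes of the ATF4 response 2 rose, Atf5 and Phgdh, where 0.123% of all genes tested rose, and 0 fell, where 0.223% of all genes did. The median of the 22 was 0.13. Both ATF4 lists were chosen with earlier results of these data known, so these shares are a description and no test of the lists. Phgdh had an adjusted p of 0.0353 (limma-trend), and how these 2 calls fare under the alternative settings is not given here. Atf5, a transcription factor related to ATF4, was at 944 ± 62.1 normalized counts in cKO and 702 ± 37.7 in WT (log2 fold change 0.39 ± 0.0679, adjusted p = 0.0323), a larger value than that of any synthetase.

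Mitochondrial enzymes showed no common direction. Fars2 (ENSMUSG00000021420, chromosome 13, 36301394 to 36910254 in GRCm39), for phenylalanine, had the largest log2 fold change of all 35 genes, with 459, 587, 475 and 516 normalized counts in cKO, against 432, 449, 481, 434 and 420.4 in WT. The female cKO library was the highest and WT replicate 3 exceeded 2 of the cKO males, so the groups overlapped (log2 fold change 0.28 ± 0.0807, 95% interval 0.11 to 0.46, unadjusted p = 0.00377, adjusted p = 0.201). The value was 0.40 in females only and 0.16 in males only. Fars2 shares 921 bases with Nrn1, a neuronal gene at 3864 normalized counts on average, and 116 bases at its start with Lyrm4, which serves iron-sulphur cluster assembly. The log2 fold change was -0.080 ± 0.0573 for Nrn1 and 0.20 ± 0.0781 for Lyrm4 (adjusted p = 0.626 and 0.349). Mars2, for methionine, held 1138, 1082, 1297 and 1226 normalized counts in cKO, against 1219.6, 1222, 1173, 1364 and 1375 in WT. The groups overlapped (log2 fold change -0.13 ± 0.0762, adjusted p = 0.558). The value was -0.0013 without cKO replicate 2, where males alone are compared, and -0.24 without WT replicate 1, where females alone are. Iars2, for isoleucine, held 2019.5, 2061, 1953 and 1956 normalized counts in cKO, against 1906, 1895, 1926, 2025 and 1879.7 in WT, and WT replicate 4 was the single WT library within the cKO range (log2 fold change 0.074 ± 0.0449, adjusted p = 0.558). Wars2 held 353, 337, 347 and 340.4 normalized counts in cKO, against 375, 356, 368, 407 and 351 in WT. Its cKO libraries were tightly grouped, and only WT replicate 5 came among them (log2 fold change -0.12 ± 0.0780, adjusted p = 0.579). Yars2, for tyrosine, held 444, 389, 417 and 412 normalized counts in cKO, against 435, 438, 452, 446 and 415 in WT, with cKO replicate 1 above 3 of the 5 WT libraries and the other 3 cKO libraries below 4 of them (log2 fold change -0.10 ± 0.0718, adjusted p = 0.613). It was -0.035 without cKO replicate 2 (males alone compared) and -0.17 without WT replicate 1 (females alone compared).

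Aars2, for alanine, held 775, 684, 729.5 and 740.2 normalized counts in cKO, against 796, 745, 693, 713 and 712 in WT. The group means were equal within 1 count, and the log2 fold change was -0.077 ± 0.0565 (adjusted p = 0.633) with sex as a term and 0.00073 without it. Vars2, for valine, held 985, 1012, 928 and 894 normalized counts in cKO, against 999, 904, 864, 813 and 881 in WT. 3 of the 4 cKO libraries were within the WT range, and replicate 2, the female, lay above it (log2 fold change 0.070 ± 0.0732, adjusted p = 0.755). Ears2 loads glutamate on the mitochondrial tRNAs for glutamate and glutamine, and the glutamate on the glutamine tRNA is then amidated to glutamine by the complex of Qrsl1, Gatb and Gatc. It held 264, 230.1, 204 and 258 normalized counts in cKO, against 240.3, 285, 266, 275 and 239.8 in WT. The groups overlapped, with a wide interval of -0.35 to 0.14 (log2 fold change -0.11 ± 0.113, adjusted p = 0.763). The remaining mitochondrial genes, Cars2, Hars2, Lars2, Nars2, Pars2, Rars2, Sars2 and Tars2, had log2 fold changes of -0.047 to 0.087, and the groups overlapped in each. The highest, that of Pars2, for proline, was 0.057 when cKO replicate 3 was left out and 0.036 when WT replicate 5 was. It was 0.027 without cKO replicate 2 (males alone compared) and 0.14 without WT replicate 1 (females alone compared). Of 10 other genes for the charging and modification of mitochondrial tRNA, among them Qrsl1, Gatb and Gatc, 0 passed (median -0.010). Of 11 mitochondrial translation factors 0 passed and 3 were above 0 (median -0.062). Guf1, a mitochondrial translation factor related to bacterial LepA, had the smallest p of that list and was at 2054 ± 129 in cKO, against 1886 ± 88.6 in WT, with overlapping groups (log2 fold change 0.13 ± 0.0595, adjusted p = 0.417). Gfm1, a mitochondrial elongation factor, did not overlap, with 1465 to 1562 in cKO, against 1607 to 1746 in WT (log2 fold change -0.11 ± 0.0478, adjusted p = 0.430). On the cytosolic side 0 of 6 elongation factors passed (median 0.041), and 0 of 11 other genes of tRNA charging and export (median 0.022). Among those 11, Tars3, a further threonine enzyme, did not overlap, at 1358 to 1397 in cKO and 1434 to 1494 in WT (log2 fold change -0.078 ± 0.0443, adjusted p = 0.532).

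The enzymes of one amino acid were set side by side in 17 pairs of chains, counting Eprs1 and Fars2 in a pair each time they apply. In 13 pairs the cytosolic log2 fold change was the larger, and in 4 the mitochondrial one. Both were above 0 in 7 pairs and both below 0 in 2. The cytosolic gene was above 0 and its partner below 0 in 6 pairs, for alanine, glutamate, leucine, methionine, asparagine and tyrosine. Methionine had the widest of these, with 0.063 for Mars1 and -0.13 for Mars2. Without cKO replicate 2, where males alone are compared, the value of Mars2 was -0.0013. The reverse held in 2 pairs, isoleucine and the beta chain of the phenylalanine enzyme. Pairs share libraries, and some share a gene, so these counts are a description, and the difference between the classes was not tested.

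**Figure D4:**
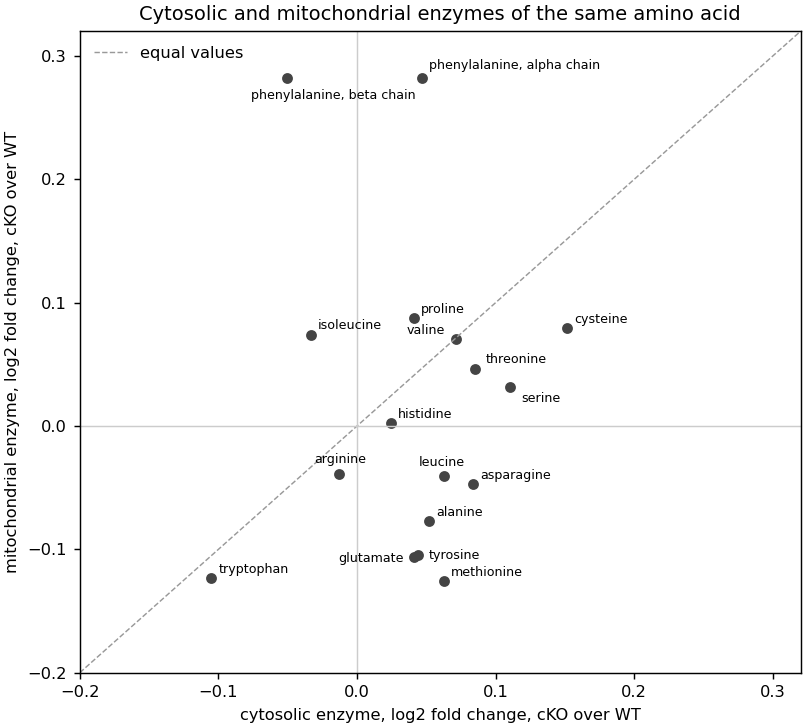
Log2 fold change (cKO over WT) of the cytosolic enzyme against that of the mitochondrial enzyme of the same amino acid, 1 point per pair, with the line of equal values dashed. Of 17 points 13 lie below the line, and the 2 phenylalanine points lie highest because both use Fars2.

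Per library, each gene's log2 value was set against its own mean over the 9 libraries, and the median over the 19 cytosolic genes was taken. It was 0.020, 0.033, 0.0038 and 0.013 in cKO replicates 1 to 4, against 0.0037, -0.026, -0.030, -0.039 and -0.066 in WT replicates 1 to 5. The 4 cKO libraries lay above the 5 WT libraries, by the narrowest margin to the WT male. These medians are not adjusted for sex. The same median over the 16 mitochondrial genes was 0.034, 0.026, -0.019 and -0.020 in cKO, against 0.028, -0.014, -0.019, 0.033 and -0.042 in WT, and the groups overlapped. In WT replicate 5 only 2 of 19 cytosolic genes and 3 of 16 mitochondrial genes were above their own mean, the fewest of any library in both classes. Mitochondrial genes were the lower in level and the noisier: the median coefficient of variation was 6.14% in cKO and 6.03% in WT, against 2.78% in cKO and 3.06% in WT for the cytosolic genes. The median SE of the log2 fold change was 0.0734 for mitochondrial and 0.0464 for cytosolic genes, so a change of the same size is harder to detect among mitochondrial enzymes.

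**Figure D5:**
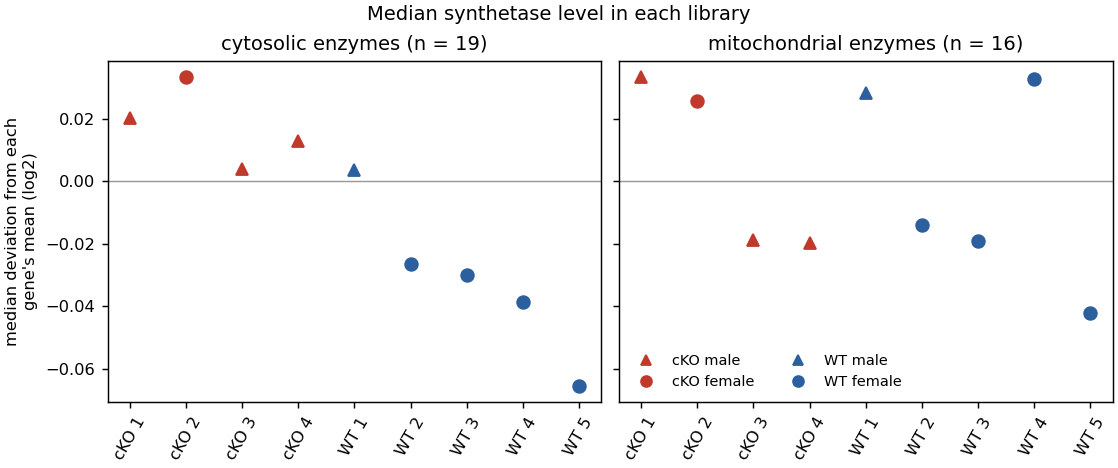
Median over the genes of each class of the log2 deviation from the gene's own mean, 1 point per library, cKO in red left of WT in blue, triangles for males and circles for females. The cytosolic medians of the 4 cKO libraries lie above those of the 5 WT libraries, but cKO replicate 3 (0.0038) hardly exceeds the WT male (0.0037). The mitochondrial medians overlap. The values are not adjusted for sex.

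Sex was compared in the same fit. Of the 35 genes 0 passed for males against females (limma-trend, adjusted), where 0.0528% of all genes tested did, and edgeR called 0 and DESeq2 0 of them. At an unadjusted p under 0.05 there was 1, where all genes gave 6.73%. It was Aars2, with a log2 difference of 0.14 ± 0.0565 (male over female, adjusted p = 0.711). The interaction of sex and genotype, which rests on 1 female cKO and 1 male WT library, gave 0 of 35 after adjustment, where 0.00587% of all genes passed. At an unadjusted p under 0.05 there were 2 of 35, both mitochondrial, where all genes gave 7.9%. In Cars2, for cysteine, the female cKO library was highest at 589.5 normalized counts, with 469, 432 and 525 in the cKO males. The WT male held 537, with 479, 480.2, 475 and 453 in the WT females (adjusted p = 0.570). The other was Vars2 (adjusted p = 0.595). 11 of the 35 genes overlap another gene with a mean of at least 10, and in 5 of them (Cars2, Ears2, Fars2, Hars2 and Iars2) the other gene had the higher count. Hars1 and Hars2, for histidine, are neighbours on chromosome 18 that overlap by 199 bases. The libraries were directional, but no source used here says whether counting used strand, so shared reads of such genes cannot be told apart.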

How the data were processed

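RNA of 9 hippocampi was sequenced from directional libraries, per the labels' protocols. The deposited signal values are normalized counts for each gene in each library: the authors divided read counts by a size factor per library. FastQC 0.12.1, cutadapt 4.4, STAR 2.7.10b, DESeq2 1.41.8 and the GRCm39 build are named per the submitters' processing notes, while read counter, annotation and strand setting are in no source used here. 0 columns were left unused.

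Values were tested as log2(normalized count + 1) with limma-trend 3.58.1 (R 4.3.3), in a model of genotype and sex. 17036 genes, those whose mean reached 10, entered, and Benjamini-Hochberg adjusted p under 0.05 was called. Fold changes on this scale understate those of low genes. Alternatives were edgeR 4.0.16 and DESeq2 1.42.0 on reads recovered from the steps of the values, pseudocounts of 0.5 and 5, a mean of 50, no filter, TMM scaling, a robust fit, no sex term, each sex alone, a meningeal marker term, and leaving out libraries. In 3 libraries (cKO replicate 1, WT replicates 1 and 4) the step is so close to 1 that recovered reads hardly differ from the rounded values.

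Replicates are separate samples per the labels, numbered in the order of their records. Litters are not given, so p-values measure only the spread between these samples. Replicate pairs differed beyond sampling noise (chi-square per gene 3.60 to 13.0 over 16 pairs), so none was counted as 1 library. Exon lengths came from GENCODE M21 (GRCm38), and promoters from RefSeq (GRCm38.p6). Named genes are the 8 of smallest p in each class, the 2 highest and 2 lowest per kb, and up to 4 of smallest p in each other list. The members and lists were chosen with earlier results of these data known. The fitting script was tested on simulated data.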

Additional observations from a re-analysis of the deposited data

Results flagged for a closer look

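In 4 of 70 groups of libraries, 2 groups for each of the 35 genes, 1 library stood apart from the others of its group. The gap to its nearest neighbour exceeded Dixon's 95% critical value, and chance gives such a gap in about 1 in 20 groups. For Cars1 it was cKO replicate 1, at 1752 normalized counts. For Nars1 it was cKO replicate 3, at 7471. For Wars1 it was cKO replicate 4, the lowest of its group, at 2903. For Rars1 it was WT replicate 2, at 1563. 3 of these genes, Cars1, Nars1 and Wars1, were also among the 4 whose groups did not overlap. With the library that stood apart left out, the log2 fold change was 0.12 for Cars1, 0.063 for Nars1 and -0.091 for Wars1, against 0.15, 0.083 and -0.11 with all libraries (limma, none passing after adjustment). Over all libraries left out in turn, the range was 0.12 to 0.18 for Cars1, 0.063 to 0.10 for Nars1 and -0.15 to -0.066 for Wars1. Of these ends, 0.18, 0.10 and -0.15 come from a fit that compares males alone, and -0.066 from a fit that compares females alone.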

How the results depend on the processing

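0 of the 35 genes passed under any of the 22 alternatives for cKO against WT. The smallest adjusted p of any of them was 0.0786, for Cars1 without the sex term (limma, Benjamini-Hochberg). Of 770 fold changes under the alternatives, 37 had the other sign, in 16 genes, and 19 genes kept their sign in all. Leaving out cKO replicate 2 gives the same fold changes as males alone, and leaving out WT replicate 1 the same as females alone. The sign changes of these settings are therefore counted again among the 37. No paired analysis was possible because the labels give the groups no shared replicate numbers. The mitochondrial genes had the lower counts and the larger SEs, and the part of depth in this was not tested.

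The number of genes passing, 59 of all tested, was 200 with DESeq2, 216 without the sex term, 3 in males, 11 in females, 8 with the meningeal markers as a term and 15 without WT replicates 2 and 5. Leaving out 1 library gave 10 to 65, and the count moved most when the library omitted was cKO replicate 1 (28 genes), cKO replicate 2 (10), WT replicate 1 (21), WT replicate 2 (29) or WT replicate 5 (30). For males against females, 9 genes passed, 24 with DESeq2 and 9 to 16 when 1 library was left out, the highest without cKO replicate 4.

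The cytosolic median log2 fold change, 0.047, was 0.070 in females and 0.029 to 0.070 with 1 library left out. The mitochondrial median, -0.018, was -0.058 in males, 0.020 in females, 0.0071 without the sex term and -0.058 to 0.020 with 1 library left out. Without the cKO female or the WT male, the fit compares a single sex.

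The sign turned in males for Gars1 -0.033, Iars1 0.062, Kars1 -0.044, Vars1 -0.049, Cars2 -0.18, Ears2 0.0024, Sars2 -0.11 and Vars2 -0.10, and in females for Mars1 -0.032, Rars1 0.040, Hars2 -0.047, Lars2 0.020 and Rars2 0.021. It turned with the meningeal term for Mars1 -0.010, Rars1 0.013, Hars2 -0.043, Nars2 0.0055, Sars2 -0.0028 and Tars2 -0.024, without the sex term for Aars2 0.00073, and without WT replicates 2 and 5 for Hars2 -0.0043. The range with 1 library left out was -0.033 to 0.10 for Gars1, -0.12 to 0.062 for Iars1, -0.044 to 0.070 for Kars1, -0.032 to 0.16 for Mars1, -0.070 to 0.040 for Rars1, -0.049 to 0.18 for Vars1, -0.18 to 0.32 for Cars2, -0.21 to 0.0024 for Ears2, -0.047 to 0.056 for Hars2, -0.11 to 0.020 for Lars2, -0.10 to 0.021 for Rars2, -0.11 to 0.16 for Sars2 and -0.10 to 0.23 for Vars2. None of these values passed, and the cause was not tested.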
